A study of Mus musculus with 30 samples.

Results

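Tumours grown from B2m knockout MC38 cells were compared with tumours grown from wild-type MC38 cells, both under an antibody against PD-1. The comparison uses 10 of the 30 libraries of the series, 5 named B2mKO_aPD1 and 5 named WT_aPD1, chosen by their titles, and covers all 15505 genes with enough counts to test. MC38 is a mouse colon carcinoma line. Female C57BL/6 mice of 6 to 8 weeks received 1000000 cells under the skin, and the B2mKO cells carry loss-of-function mutations in B2m. The mice received 100 µg of the antibody (aPD1) into a vein on days 7, 10 and 13, and about 50 mg of each tumour was frozen on day 14 for RNA sequencing. The wild-type cells (WT) carry neither knockout. The labels do not say whether the knockout line is a single clone, and they describe the hosts only by strain, sex and age, so each library mixes RNA of the injected cells with RNA of host cells. Libraries B2mKO_IgG1 and WT_IgG1 hold the same pair of tumour genotypes given the isotype control IgG1 at the same dose and days, and Jak1KO_aPD1 holds tumours of MC38 cells with loss-of-function mutations in Jak1 under aPD1. Each of these groups has 5 libraries.

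B2m encodes beta-2 microglobulin, the light chain that MHC class I molecules need to reach the cell surface and show peptides to CD8 T cells. PD-1 is an inhibitory receptor on T cells, and its ligand PD-L1 (Cd274) is induced by interferon gamma, the cytokine made by activated T cells and NK cells. Interferon gamma signals through the receptor chains Ifngr1 and Ifngr2 and the kinases Jak1 and Jak2 to GAS elements in target promoters. Type I interferons act through a related pathway on ISRE elements. Cells without class I are poor targets for CD8 T cells and can be attacked by NK cells, whose inhibitory receptors read class I.

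The promoters below, 6 in all, were chosen because they hold matches to the DNA elements on which interferon signals act. The windows of Cd274, Ifih1 and Oasl1, and that of a second Irf1 start, hold no match and are not printed. The window of a second Ifit1bl1 start (chr19:34599428-34599677, minus strand) holds 1 ISRE match and is not printed either. Each line gives the 250 bases before a RefSeq transcription start (GRCm38.p6), 5′ to 3′ on the gene's own strand, with capitals at matches to GAS (TTCNNNGAA) or ISRE (GAAA, any 2 bases, then GAAA), searched on both strands. The windows are B2m at chr2:122147437-122147686 (plus strand), Irf1 at chr11:53769764-53770013 (plus), Gbp7 at chr3:142530086-142530335 (plus), Gbp2b at chr3:142594597-142594846 (plus), Irgm1 at chr11:48871421-48871670 (minus) and Ifit1bl1 at chr19:34601969-34602218 (minus).
B2m: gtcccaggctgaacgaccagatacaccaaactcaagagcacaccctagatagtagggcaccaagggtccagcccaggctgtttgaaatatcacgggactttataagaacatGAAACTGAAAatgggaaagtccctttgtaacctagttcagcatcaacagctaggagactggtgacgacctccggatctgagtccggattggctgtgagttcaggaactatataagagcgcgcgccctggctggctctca
Irf1: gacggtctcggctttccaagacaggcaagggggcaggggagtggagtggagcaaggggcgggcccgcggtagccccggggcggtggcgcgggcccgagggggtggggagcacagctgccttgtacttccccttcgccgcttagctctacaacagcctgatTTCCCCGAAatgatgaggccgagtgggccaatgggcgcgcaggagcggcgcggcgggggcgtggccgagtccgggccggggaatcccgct
Gbp7: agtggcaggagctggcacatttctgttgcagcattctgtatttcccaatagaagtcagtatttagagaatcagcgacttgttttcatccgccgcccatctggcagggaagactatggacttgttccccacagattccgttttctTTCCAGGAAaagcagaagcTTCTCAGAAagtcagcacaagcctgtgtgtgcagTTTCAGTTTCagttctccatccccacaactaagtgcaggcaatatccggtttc
Gbp2b: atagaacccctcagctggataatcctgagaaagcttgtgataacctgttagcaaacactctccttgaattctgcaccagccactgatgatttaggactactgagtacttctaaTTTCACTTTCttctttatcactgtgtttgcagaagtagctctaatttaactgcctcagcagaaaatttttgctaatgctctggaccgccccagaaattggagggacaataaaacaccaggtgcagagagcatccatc
Irgm1: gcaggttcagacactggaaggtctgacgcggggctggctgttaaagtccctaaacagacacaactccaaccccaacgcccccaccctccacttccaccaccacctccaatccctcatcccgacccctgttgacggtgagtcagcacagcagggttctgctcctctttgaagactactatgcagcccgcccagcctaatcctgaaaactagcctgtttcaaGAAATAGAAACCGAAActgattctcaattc
Ifit1bl1: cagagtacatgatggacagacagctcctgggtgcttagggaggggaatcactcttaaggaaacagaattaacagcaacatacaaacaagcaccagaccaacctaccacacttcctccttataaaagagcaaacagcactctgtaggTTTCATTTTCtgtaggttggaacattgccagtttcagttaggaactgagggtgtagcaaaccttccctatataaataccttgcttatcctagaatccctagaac
The Gbp7 window holds 2 GAS and 1 ISRE match, the Irf1 window 1 GAS match, the Irgm1 window 2 ISRE matches that overlap, and the B2m, Gbp2b and Ifit1bl1 windows 1 ISRE match each. Of all 32851 RefSeq windows of this length, 7.02% held a GAS match and 2.98% an ISRE match. Of 33 windows matched to 27 of the 42 tested interferon gamma response genes, 33.3% held a GAS and 39.4% an ISRE match. Of 29 windows of 25 of the 34 tested type I interferon response genes, 13.8% held a GAS and 51.7% an ISRE match. Of 8 windows of 7 of the 10 tested MHC class II genes, 12.5% held a GAS match and none an ISRE match. A match is a description of the letters and not a measured binding site.

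B2m itself was lower in every knockout tumour. It stood at 621, 963, 561, 809 and 790 CPM in B2mKO_aPD1 replicates 1 to 5 and at 4266, 4475, 5459, 3584 and 5079 CPM in WT_aPD1 replicates 1 to 5, so the groups did not overlap. CPM are counts per 1000000 counts in the tested genes, with each library's total scaled by TMM, a normalisation between libraries. The means were 749 ± 160 and 4572 ± 728 CPM (SD, n = 5 each), a level of 16.4% of wild type. The log2 fold change was -2.61 ± 0.20 (SE; edgeR quasi-likelihood test, adjusted p = 1.85e-10), and an exact two-sided permutation test of the CPM gave p = 0.00794, the smallest that 5 against 5 allows (adjusted with Jak1, 0.0159). A loss-of-function mutation need not remove the transcript and host cells have the gene, and how far each contributes to the remaining level was not measured. Jak1, the kinase targeted in the other knockout of the series, stood at 278 ± 45.6 CPM against 239 ± 6.09 CPM and did not pass the test (0.22 ± 0.10, adjusted p = 0.129).

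The library totals of the 10 tumours ran from 17983200 to 25658875 counts. The library B2mKO_aPD1 replicate 2 stood apart, with a correlation over genes of 0.959 between its log2 CPM and the mean of the other 4, against 0.982 to 0.991 for those 4. Its share of counts in mitochondrially encoded genes was 1.09%, against 1.72% to 2.13% in the rest of its group, and WT_aPD1 replicate 3 was as low, at 0.99%. Among the wild-type tumours, WT_aPD1 replicate 4 had the lowest summed levels of interferon gamma response and MHC class II genes. Fibroblast, endothelial and immune genes were all detected, whereas the colon epithelial markers summed to 6 to 31 CPM in knockout and 8 to 34 CPM in wild-type tumours, with 7 of 15 markers abundant enough to test and Cdx2 and Tff3 at 0 counts in all 30 libraries.

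Between the genotypes 3061 of the 15505 genes differed at an adjusted p under 0.05, which is 19.7% of those tested. Of these, 1481 were higher in B2mKO_aPD1 (9.55% of genes tested) and 1580 were lower (10.2%). The change was at least 4-fold for 100 of the higher and 162 of the lower genes. The knockout and wild-type values did not overlap for 1660 of the 3061, a property that 1865 of all tested genes had (12%). Fitted to these 10 libraries alone, the count was 1753, of which 1708 were among the 3061. Without WT_aPD1 replicate 4 and B2mKO_aPD1 replicate 2 it was 3485, with 2445 shared. The median log2 fold change over all genes was -0.0033.

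**Figure D1:**
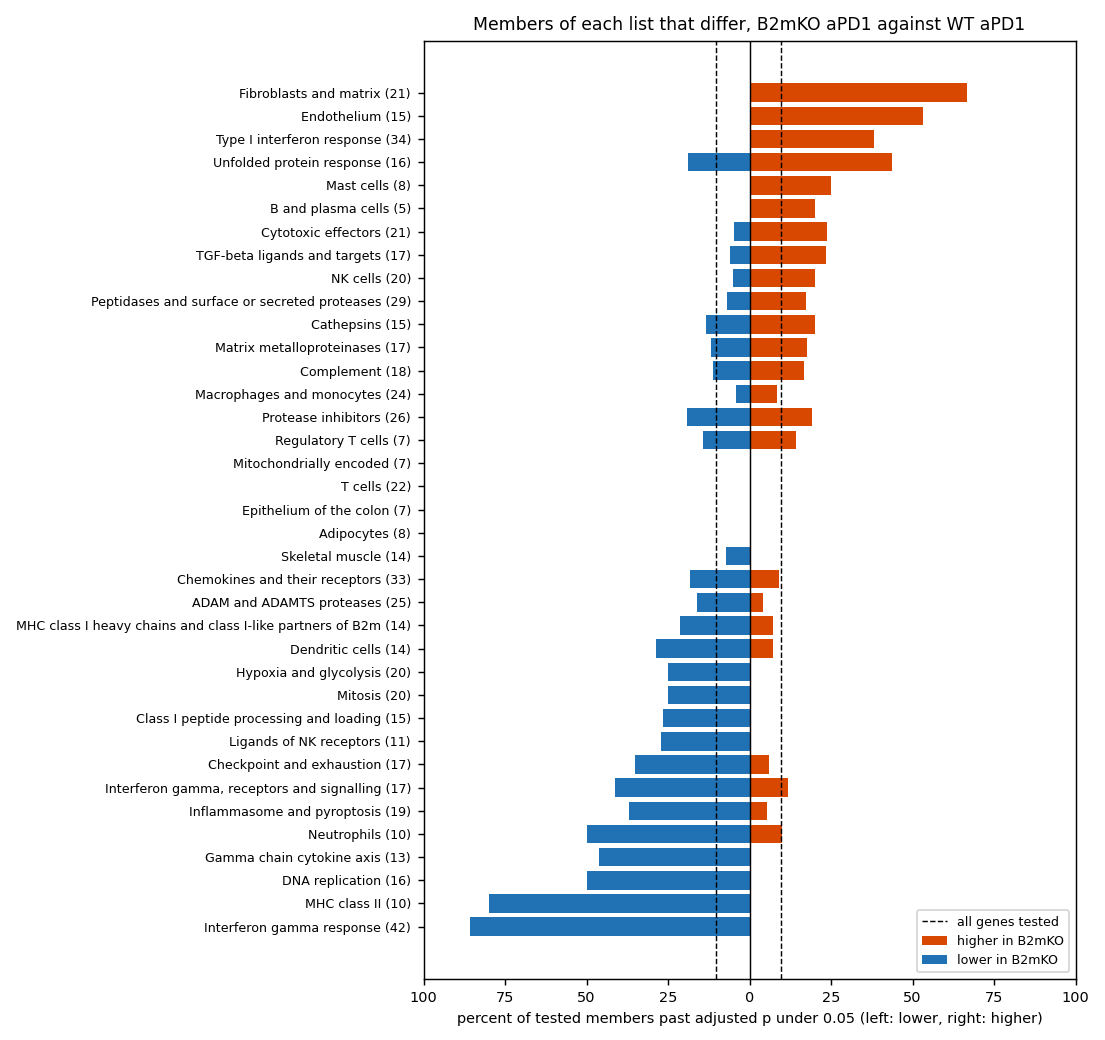
Percent of the tested members of each gene list (number tested in brackets, lists with at least 5) that were lower (left, blue) or higher (right, orange) in B2mKO_aPD1 than in WT_aPD1 at an adjusted p under 0.05. Dashed lines mark the shares over all genes tested, 10.2% lower and 9.55% higher. The interferon gamma response and MHC class II lists reach furthest to the left, and fibroblasts and matrix furthest to the right.

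Interferon gamma transcripts were scarce in knockout tumours. Ifng stood at 4.91, 5.15, 5.43, 0.753 and 3.43 CPM in WT_aPD1 replicates 1 to 5 and at 0.054, 0.245, 0, 0.486 and 0.131 CPM in B2mKO_aPD1 replicates 1 to 5. Every knockout tumour was below every wild-type tumour, and the wild-type range was set by replicate 4. The log2 fold change was -4.37 ± 0.83 (adjusted p = 0.000384). Under IgG1 the gene was low in both genotypes, at 0.0708 ± 0.0598 CPM in knockout and 0.262 ± 0.130 CPM in wild-type tumours (adjusted p = 0.28).

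None of the receptor chains or kinases named here passed as lower. Ifngr1 rose by 0.43 ± 0.14 and Ifngr2 by 0.36 ± 0.12 on the log2 scale (adjusted p = 0.0255 and 0.0393), but neither call was kept without WT_aPD1 replicate 1 or without WT_aPD1 replicate 4, and 5 other libraries each decided 1 or both of them. Jak2 stood at 77.3 ± 14.6 CPM against 85.1 ± 7.42 CPM (adjusted p = 0.41). Irf1 and the feedback inhibitor Socs3, both downstream, fell. Irf1, the transcription factor whose promoter carries the GAS match printed above, was at 280 ± 54.2 against 482 ± 100 CPM (-0.78 ± 0.14, adjusted p = 0.000177). Socs3, an inhibitor of cytokine signalling, was at 36.1 ± 2.95 against 78.7 ± 12.3 CPM (-1.13 ± 0.18, adjusted p = 6.52e-05). Of the 17 tested genes of the ligand, receptors and signalling, 7 fell and 2 rose.

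Interferon gamma response genes were lower almost throughout. Of 42 tested members, 36 fell and none rose, with a median log2 fold change of -1.15. The list holds guanylate-binding proteins and immunity-related GTPases, which act against intracellular microbes, together with chemokines, enzymes and PD-L1. Its summed level was 8351, 9530, 10039, 4912 and 9775 CPM in WT_aPD1 replicates 1 to 5 and 3967, 4544, 3030, 4293 and 3935 CPM in B2mKO_aPD1 replicates 1 to 5. No knockout tumour reached the lowest wild-type tumour, replicate 4. Leaving out single libraries gave 29 to 37 members lower, and leaving out WT_aPD1 replicate 4 with B2mKO_aPD1 replicate 2 gave 38. Among the members that did not pass were Ifi47, Gbp3, Ubd, Fcgr1 and Gbp9.

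Ido1, which degrades tryptophan, stood at 0.126 ± 0.153 CPM in knockout and 3.24 ± 1.36 CPM in wild-type tumours (-4.62 ± 0.58, adjusted p = 1.83e-06). Gbp2b was at 91.6, 126, 101, 7.06 and 71.1 CPM in wild-type tumours and at 0.108, 0.539, 0.927, 0.486 and 0.0872 CPM in knockout tumours, and its ISRE match is in the promoter printed above. Its log2 fold change was -7.51 ± 1.29 (adjusted p = 0.000126), and it was also lower in B2mKO_IgG1 (-4.72, adjusted p = 0.028). Cxcl9, a chemokine that draws T cells through Cxcr3, was at 46.1 ± 13.5 against 337 ± 126 CPM (-2.87 ± 0.60, adjusted p = 0.000991). The related Cxcl10 fell less, by 0.60 on the log2 scale (adjusted p = 0.0247), a call lost in 5 of the fits without a single library.

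Nos2, the inducible nitric oxide synthase, was at 53.2 ± 17.1 against 266 ± 71.0 CPM (-2.32 ± 0.45, adjusted p = 0.000486). Acod1, which makes itaconate in activated macrophages, was at 13.0 ± 3.80 against 68.4 ± 27.1 CPM (-2.40 ± 0.47, adjusted p = 0.000495). Both are genes of activated macrophages. The summed macrophage and monocyte markers ran from 5300 to 9386 CPM in knockout and 3934 to 8388 CPM in wild-type tumours and overlapped. Which cells made the Nos2 and Acod1 RNA was not tested, nor whether cell number or RNA per cell differed. Upp1, uridine phosphorylase, fell by 2.01 on the log2 scale (adjusted p = 5.74e-06). Tgtp1, a GTPase of the same response, fell by 3.03 (adjusted p = 1.13e-05).

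**Figure D2:**
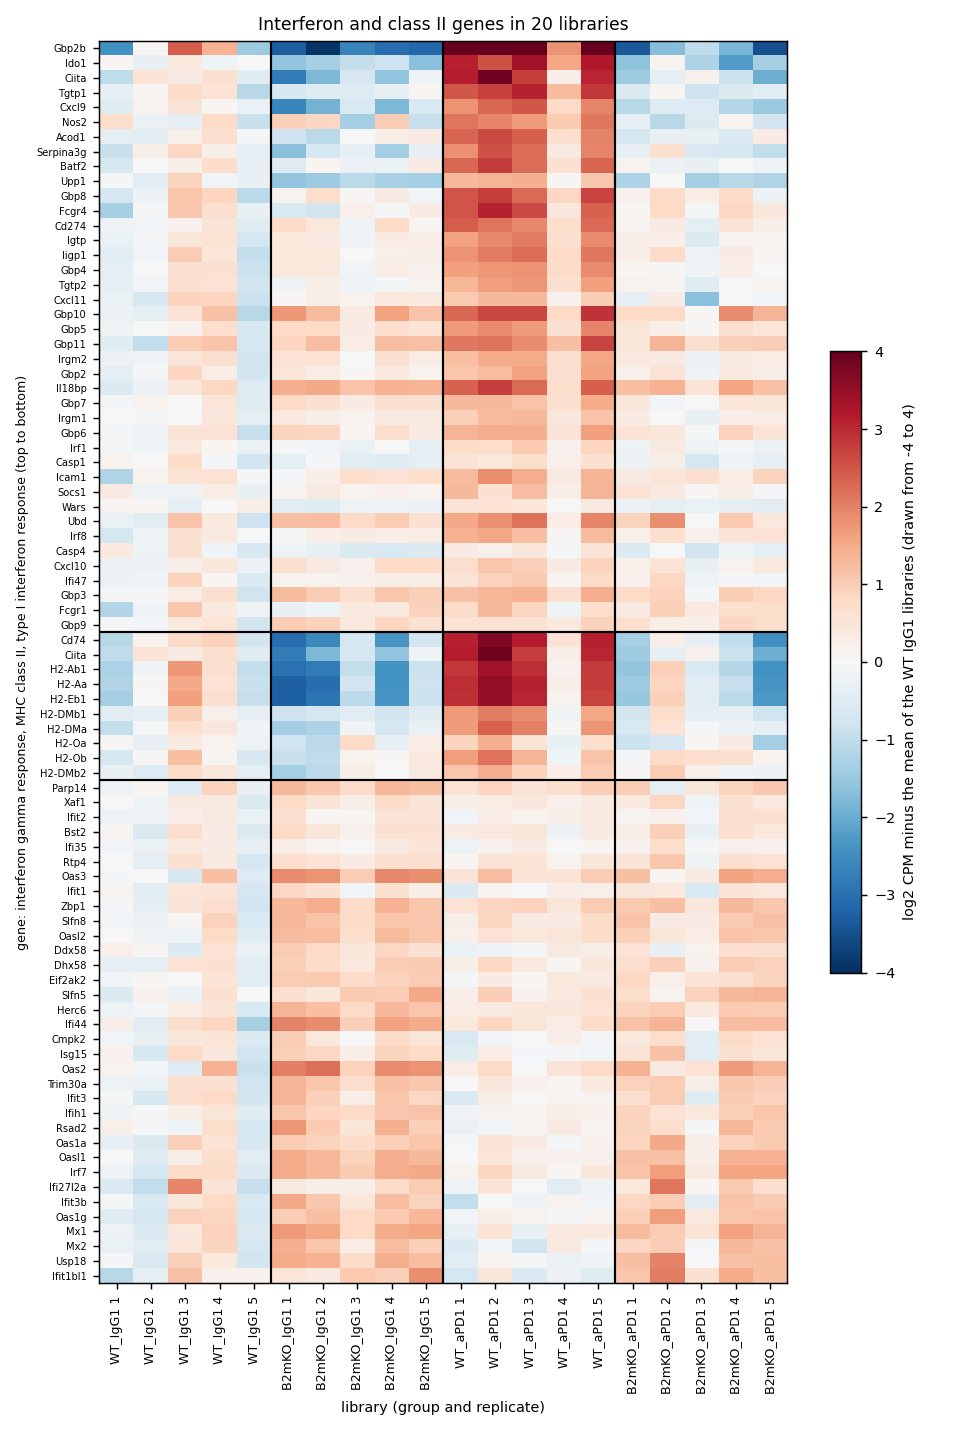
Log2 CPM of the interferon gamma response, MHC class II and type I interferon response genes reported here (rows, top to bottom, split by black lines) in 20 libraries (columns), each as the difference from the mean of the 5 WT_IgG1 libraries, drawn from -4 (blue) to 4 (red). WT_aPD1 replicates 1, 2, 3 and 5 are red over the upper blocks and B2mKO_aPD1 is not. The lower block is mostly red in both knockout groups, and palest among them in B2mKO_aPD1 replicate 3. Ciita is in the first and the second list.

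Of 17 tested checkpoint genes, which encode inhibitory and costimulatory receptors and ligands, 6 fell, 1 rose and 10 did not pass, with a median log2 fold change of -0.67. Leaving out single libraries gave 4 to 8 lower, with 8 without WT_aPD1 replicate 4 and 7 without B2mKO_aPD1 replicate 2. Cd274 was at 197, 161, 139, 59.4 and 177 CPM in wild-type and 38.9, 45.7, 28.2, 54.0 and 43.5 CPM in knockout tumours. No values overlapped, although WT_aPD1 replicate 4 came close to the highest knockout tumour. The log2 fold change was -1.80 ± 0.29 (adjusted p = 5.62e-05). Entpd1 (CD39), which breaks down extracellular ATP, fell by 1.36 (adjusted p = 0.000731) and Havcr2 (TIM-3) by 0.94 (adjusted p = 0.00936). Lgals9, which encodes the TIM-3 ligand galectin-9, rose by 0.57 ± 0.13 (adjusted p = 0.0029).

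MHC class II genes had the lowest median of the 38 lists. MHC class II molecules show peptides to CD4 T cells and are made under the control of Ciita. Of 10 tested members, 8 fell and none rose, with a median log2 fold change of -2.53. Ciita was at 50.6, 85.3, 38.9, 6.78 and 47.6 CPM in wild-type and 2.05, 4.26, 6.34, 3.11 and 1.40 CPM in knockout tumours (-3.74 ± 0.73, adjusted p = 0.000521). Cd74, the invariant chain, was at 2275, 3544, 2388, 407 and 2270 CPM in wild-type and 107, 327, 217, 136 and 48.9 CPM in knockout tumours (-3.70 ± 0.78, adjusted p = 0.00116). In both genes WT_aPD1 replicate 4 lay just above the knockout range.

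The structural chain H2-Ab1 was at 98.9 ± 98.1 CPM in knockout and 918 ± 467 CPM in wild-type tumours (-3.22 ± 0.82, adjusted p = 0.00591). Its groups overlapped, through B2mKO_aPD1 replicate 2 at 269 CPM and WT_aPD1 replicate 4 at 154 CPM. The peptide exchange factors H2-DMa and H2-DMb1 fell by 1.84 and 1.78 on the log2 scale. Without those libraries all 10 members passed as lower. No class II gene passed the edgeR test between the genotypes under IgG1, where 20.6% of all genes passed and the class II median was -1.02, though 4 (H2-Aa, H2-Ab1, H2-Eb1 and Cd74) had an unadjusted p under 0.05, all lower. The difference between the genotype differences under aPD1 and IgG1 passed for no class II gene either, with a median of -1.08. None passed between B2mKO_aPD1 and Jak1KO_aPD1, where 28.1% of all genes did and only Ciita had an unadjusted p under 0.05.

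Dendritic cell markers did not move as 1 group. Of 14 tested, 4 fell and 1 rose, with a median of -0.01. The falls were in Clec9a and Xcr1, receptors of the cross-presenting type 1 dendritic cells, in Itgax (CD11c) and in Irf8. Clec9a was at 1.26 ± 0.347 against 7.00 ± 3.35 CPM (-2.46 ± 0.40, adjusted p = 6.75e-05), and Itgax at 28.1 ± 7.62 against 113 ± 42.0 CPM (-2.01 ± 0.30, adjusted p = 1.72e-05). Xcr1 fell by 2.51 (adjusted p = 0.0101), a call lost when both libraries numbered 2 were left out. Zbtb46, a transcription factor of conventional dendritic cells, was instead higher in every knockout tumour, at 13.4 ± 0.748 against 8.88 ± 0.528 CPM (0.59 ± 0.10, adjusted p = 7.16e-05). In these bulk libraries fewer cells of a type and less RNA per cell cannot be told apart.

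Class I heavy chains and loading genes had smaller fold changes than B2m. Of 14 tested class I heavy chains and class I-like partners of B2m, 3 fell and 1 rose, with a median of -0.11. H2-Q7 was at 279 ± 74.9 against 547 ± 88.4 CPM (-0.97 ± 0.21, adjusted p = 0.00156) and H2-Q6 at 360 ± 83.5 against 590 ± 80.5 CPM (-0.71 ± 0.21, adjusted p = 0.0166). These genes are near-identical copies, so reads may be misassigned between them or left uncounted. H2-K1 was at 1899 ± 380 against 2681 ± 502 CPM (adjusted p = 0.0474), a call lost in 8 of 10 fits without a single library. Fcgrt, the neonatal Fc receptor, rose by 0.67 (adjusted p = 0.0128).

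Of the 15 peptide processing and loading genes 4 fell and none rose, with a median of -0.14, and the fall in Tap2 was lost in 6 of 10 fits without a single library. Under DESeq2 size factors, the DESeq2 Wald test or limma voom 1 rose. Nlrc5, the transactivator of class I genes, was at 211, 193, 147, 111 and 211 CPM in wild-type and 81.3, 24.9, 70.8, 76.0 and 65.3 CPM in knockout tumours (-1.46 ± 0.28, adjusted p = 0.000491). The groups were apart, with B2mKO_aPD1 replicate 2 lowest. Tap1, a chain of the peptide transporter, was at 213 ± 27.6 against 395 ± 84.1 CPM (-0.89 ± 0.16, adjusted p = 0.000148).

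Type I interferon response genes went the other way. Of 34 tested members, 13 rose and none fell, with a median log2 fold change of 0.52. Ifih1, the RNA sensor MDA5, was at 145, 116, 106, 151 and 171 CPM in knockout and 70.7, 87.4, 82.9, 93.6 and 87.8 CPM in wild-type tumours, with no overlap (0.71 ± 0.14, adjusted p = 0.000432). Usp18, an inhibitor of type I interferon signalling, was at 84.6, 145, 36.6, 82.2 and 84.5 CPM against 27.6, 40.5, 34.6, 30.5 and 32.9 CPM (1.38 ± 0.29, adjusted p = 0.000912). B2mKO_aPD1 replicate 3 alone lay within the wild-type range.

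Ifit1bl1, with an ISRE match in its printed promoter, was at 8.92 ± 3.40 against 2.88 ± 1.10 CPM (1.63 ± 0.36, adjusted p = 0.00178). Oasl1, an oligoadenylate synthetase-like gene, was at 80.3 ± 21.7 against 42.6 ± 4.95 CPM (0.91 ± 0.20, adjusted p = 0.00187). Irf7, a factor that amplifies type I interferon production, rose by 0.93 (adjusted p = 0.00851). Leaving out single libraries gave 9 to 17 members higher, the lowest count without WT_aPD1 replicate 1. In the IgG1 libraries, which share no sample with these, 25 of the 34 members were higher in knockout tumours and none lower, with a median of 0.93, while 9.07% of all genes were higher and 11.5% lower.

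**Figure D3:**
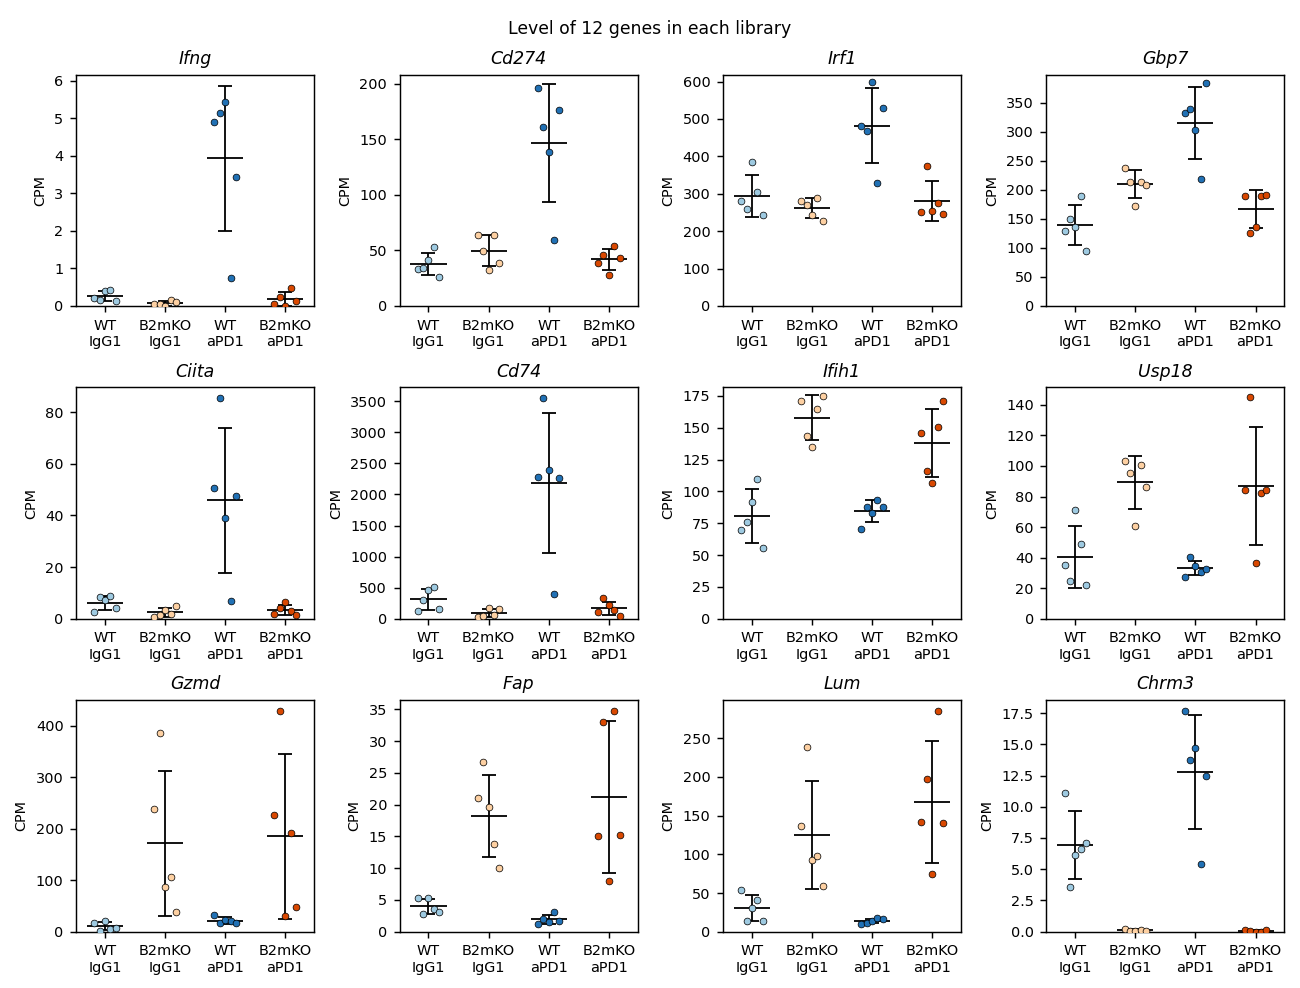
CPM of 12 genes in each of 20 libraries by genotype and antibody (linear axes from 0), with points for libraries and lines and bars for the mean ± SD of 5. Ifng, Cd274, Irf1, Gbp7, Ciita and Cd74 are higher on average in WT_aPD1 than in the other 3 groups. WT_aPD1 replicate 4 lies close to the B2mKO_aPD1 range for Ifng, Cd274, Ciita and Cd74. Gbp7 is higher on average in B2mKO_IgG1 than in WT_IgG1. Ifih1, Usp18, Gzmd, Fap and Lum are higher on average in both knockout groups than in either wild-type group, and Chrm3 is near 0 in both knockout groups.

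T cell markers gave no calls. None of 22 tested markers passed in either direction with edgeR, DESeq2 or limma voom, 0 had an unadjusted p under 0.05 in edgeR, and the median was -0.26. Cd8a stood at 3.48 ± 1.85 CPM in knockout and 6.23 ± 4.36 CPM in wild-type tumours (-0.84, adjusted p = 0.5), and Cd3e at 1.05 ± 0.515 against 2.11 ± 1.15 CPM (-1.02, adjusted p = 0.26). At these low levels the spread between tumours was wide. The summed markers ran from 43 to 88 CPM in knockout and 31 to 127 CPM in wild-type tumours. Under IgG1, 6 of the 22 markers were higher in knockout tumours.

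Granzymes of the Gzmc to Gzmg cluster rose. These serine proteases are released by cytotoxic lymphocytes to kill target cells. Of 21 tested cytotoxic effector genes, 5 rose, all from this cluster, and 1 fell. Gzmd was at 226, 428, 31, 191 and 48.5 CPM in knockout and 31.9, 16.6, 22.5, 20.9 and 15.9 CPM in wild-type tumours (3.10 ± 0.76, adjusted p = 0.00416). B2mKO_aPD1 replicate 3 lay inside the wild-type range and the other 4 above it. Gzmc rose by 2.24, Gzme by 2.74, Gzmf by 2.90 and Gzmg by 3.09 on the log2 scale, and in each of them B2mKO_aPD1 replicate 3 was the lowest knockout tumour. The 5 are neighbouring copies of similar sequence, and reads may be misassigned between them or left uncounted.

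Gzmb, the best-known granzyme, was at 51.7 ± 26.8 against 42.3 ± 17.7 CPM (0.29, adjusted p = 0.78), and perforin, Prf1, at 54.4 ± 31.1 against 20.6 ± 6.26 CPM (1.40, adjusted p = 0.069). Klrk1 (NKG2D), an activating receptor of NK and CD8 T cells, fell by 1.32 (adjusted p = 0.0474), a call lost in 8 of the 10 fits without a single library. Under IgG1, 12 of the 21 genes were higher in knockout tumours and none was lower.

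NK cell receptor genes were low, and the calls of their rises under aPD1 rested on 1 library. Of 20 tested NK markers, 4 rose and 1 fell, with a median of 0.94. Ncr1 (NKp46) was at 3.13, 5.05, 0.293, 2.19 and 3.27 CPM in knockout and 1.10, 1.19, 1.18, 0.706 and 0.669 CPM in wild-type tumours (1.52 ± 0.44, adjusted p = 0.0149). The other 4 knockout tumours were above all wild-type tumours and replicate 3 was below them. Without B2mKO_aPD1 replicate 2 none of the 4 rises passed the test, and without replicate 3 there were 8. Klrb1b, an inhibitory receptor, fell by 1.67 (adjusted p = 0.0367), also lost in 8 fits without a single library. Of the ligands of NK receptors, 3 of 11 tested fell and none rose, led by Cadm1 at 5.79 ± 2.48 against 27.4 ± 12.1 CPM (-2.24 ± 0.45, adjusted p = 0.000767). Ulbp1, an NKG2D ligand, fell by 0.47 (adjusted p = 0.00458). Under IgG1, 10 of the 20 NK markers were higher in knockout tumours and 1 was lower, with a median of 1.48. Over all genes, 9.07% were higher and 11.5% lower under IgG1.

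The common gamma chain cytokines keep lymphocytes alive, and genes of their axis were lower under aPD1 where they changed. Of 13 tested genes, 6 fell and none rose, against 4 higher and 1 lower in knockout tumours under IgG1 (median 0.29). The difference between the genotype differences under the antibodies passed for 1 of the 13. When these 10 libraries, all under aPD1, were fitted alone, 3 fell. Il7r was at 7.89 ± 3.32 against 41.2 ± 17.2 CPM (-2.38 ± 0.40, adjusted p = 8.6e-05), and the shared chain Il2rg at 30.3 ± 4.59 against 53.2 ± 16.4 CPM (-0.81 ± 0.22, adjusted p = 0.00982). Of the inflammasome and pyroptosis genes, 7 of 19 fell and 1 rose, with 4 lower without WT_aPD1 replicate 2 and 4 in a fit of these 10 libraries alone. The rise, in Il18, was lost in 8 of 10 fits without a single library. Nlrp3, the sensor of the best-studied inflammasome, fell by 1.07 (adjusted p = 0.00178) and Casp1, the protease it activates, by 0.72 (adjusted p = 0.00783).

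Macrophage markers as a list were close to even, with 2 of 24 tested higher (Mrc1 and Cd163), 1 lower and a median of -0.05. Without single libraries the call of Cd163 was lost in 6 fits and that of Mrc1 in none. Mrc1, the mannose receptor CD206, was at 110, 134, 242, 119 and 134 CPM in knockout and 38.5, 27.7, 36.4, 76.8 and 38.8 CPM in wild-type tumours, with no overlap (1.76 ± 0.32, adjusted p = 0.000227). The wild-type tumour with the most Mrc1 was replicate 4, the same library that had the lowest summed interferon gamma response. Fcrls, an Fc receptor-like gene among the largest rises, was at 150, 199, 253, 192 and 220 CPM against 8.93, 10.1, 15.4, 46.0 and 13.7 CPM (3.43 ± 0.50, adjusted p = 1.47e-05), again with WT_aPD1 replicate 4 highest of its group.

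Neutrophil genes split. Of 10 tested, 5 fell and Mmp9 rose, with a median of -0.80. Mmp8, a neutrophil collagenase, was at 0.309 ± 0.127 against 2.20 ± 1.54 CPM (-2.82 ± 0.66, adjusted p = 0.00279), and Clec4d at 10.5 ± 4.17 against 34.7 ± 16.7 CPM (-1.73 ± 0.35, adjusted p = 0.000654). Mmp9, a gelatinase that many cell types make, was at 413 ± 72.2 against 183 ± 40.6 CPM (1.17 ± 0.19, adjusted p = 5.79e-05). The neutrophil marker Ly6g had 0 counts in knockout and 1 count in wild-type tumours. Without WT_aPD1 replicate 2 or without B2mKO_aPD1 replicate 1 the falls were 3.

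**Figure D4:**
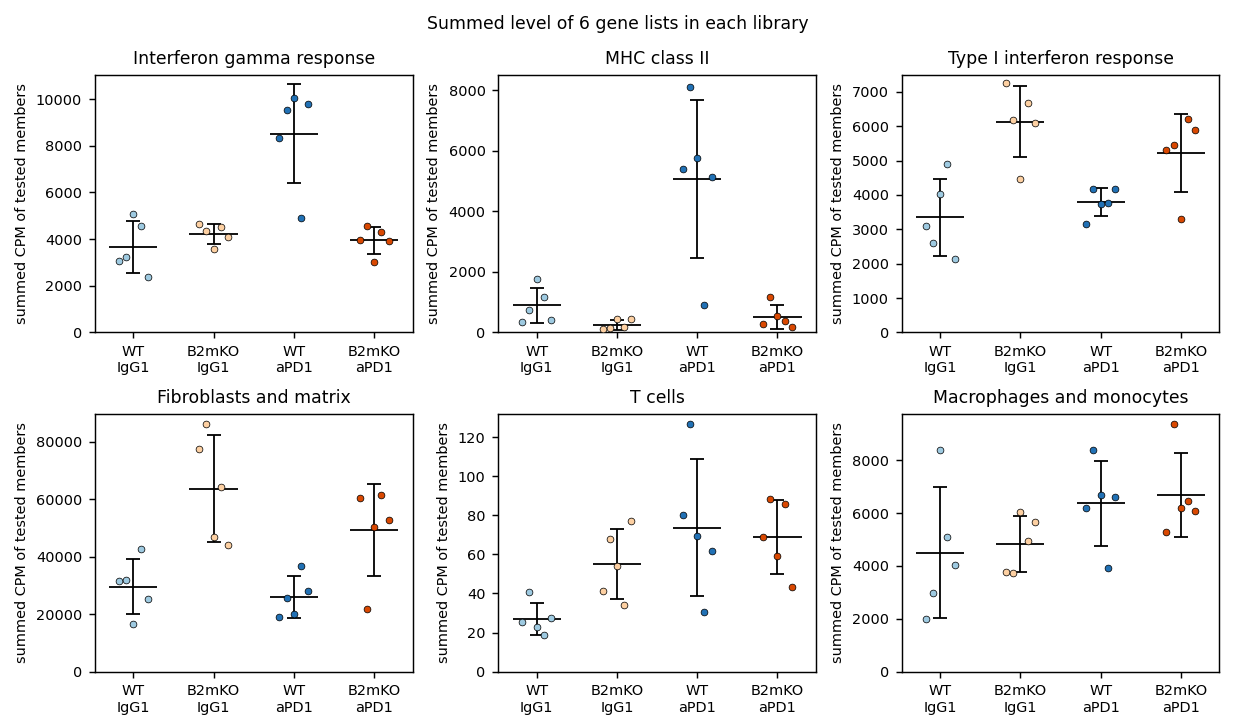
Summed CPM of the tested members of 6 gene lists in each of 20 libraries by genotype and antibody (linear axes from 0), with points for libraries and lines and bars for the mean ± SD of 5. For the interferon gamma response the 5 B2mKO_aPD1 tumours (3030 to 4544 CPM) sit below the 5 WT_aPD1 tumours (4912 to 10039 CPM). T cell and macrophage sums overlap between these groups.

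Fibroblast and matrix genes were higher in knockout tumours. Of 21 tested, 14 rose and none fell, with a median log2 fold change of 1.00. Fap, fibroblast activation protein, a surface peptidase, was at 15.0, 33.0, 8.00, 34.7 and 15.3 CPM in knockout and 1.21, 2.00, 1.54, 3.16 and 1.73 CPM in wild-type tumours (3.45 ± 0.35, adjusted p = 5.14e-08). Lum, the collagen-binding proteoglycan lumican, was at 142, 198, 74.5, 285 and 140 CPM against 10.5, 11.6, 13.9, 17.6 and 15.9 CPM (3.59 ± 0.42, adjusted p = 5.75e-07). Every knockout tumour was above every wild-type tumour for both genes.

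Fibroblasts and matrix gave less uniform values among the collagens. Col3a1 was at 14144 ± 4427 against 5693 ± 1601 CPM (1.31 ± 0.25, adjusted p = 0.000394). Col1a1 was at 714, 182, 843, 1094 and 717 CPM in knockout and 242, 340, 179, 384 and 220 CPM in wild-type tumours, so 4 knockout tumours were higher and replicate 2 lay in the wild-type range (1.38 ± 0.42, adjusted p = 0.0191, lost without WT_aPD1 replicate 3 or without B2mKO_aPD1 replicate 4). In the summed list B2mKO_aPD1 replicate 2 was again the lowest knockout tumour, with that library at 21956 CPM, the other knockout tumours at 50266 to 61375 CPM and the wild-type tumours at 19051 to 36896 CPM. Leaving out single libraries gave 12 to 15 members higher, 15 of them without that library. Under IgG1, 13 of the 21 were higher in knockout tumours and none lower. Against Jak1KO_aPD1 tumours, 11 were higher in B2mKO_aPD1 and 1, Eln, was lower.

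Endothelial genes rose in 8 of 15 tested members, with a median of 0.67 and none lower. Tek, the angiopoietin receptor, was at 3.23 ± 1.35 against 0.928 ± 0.425 CPM (1.80 ± 0.46, adjusted p = 0.0062), and Cldn5, a tight junction protein, rose by 1.36 (adjusted p = 0.00431). The count was 4 when these 10 libraries were fitted alone, 4 without B2mKO_aPD1 replicate 3, and 5 without WT_aPD1 replicate 1, WT_aPD1 replicate 5 or B2mKO_aPD1 replicate 4. Under IgG1, 1 of the 15 was higher in knockout tumours and none lower, with a median of 0.25. The difference between the antibodies passed for none of the 15. Of 17 genes of the TGF-beta axis, which drives matrix production, 4 rose and 1 fell. The rises were 2 without WT_aPD1 replicate 3 or without B2mKO_aPD1 replicate 1. Over all genes 9.55% rose and 10.2% fell in the main fit, so 2 of 17 is near the share over all genes. Tgfb3 was at 390 ± 105 against 120 ± 58.3 CPM (1.70 ± 0.22, adjusted p = 3.55e-06) and Ltbp1, which holds latent TGF-beta in the matrix, rose by 1.30 (adjusted p = 8.47e-06).

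The series is titled after protease dysregulation, and protease genes changed in both directions at shares nearer the background. Cathepsins rose in 3 and fell in 2 of 15 tested genes, and 1 of the falls, in Ctss, was lost in 9 of 10 fits without a single library. Matrix metalloproteinases rose in 3 and fell in 2 of 17, or 4 and 4 without B2mKO_aPD1 replicate 2. Of 25 ADAM and ADAMTS proteases, 4 fell and 1 rose, and of 29 other peptidases and surface or secreted proteases, 5 rose and 2 fell, the falls being 4 without WT_aPD1 replicate 4 or without B2mKO_aPD1 replicate 2 and 1 without several others. Adamts8 had the smallest p of these, at 1.15 ± 0.309 against 7.73 ± 0.800 CPM (-2.74 ± 0.24, adjusted p = 4.5e-09), with a like difference under IgG1 (-2.55). Adam8, a sheddase of leukocytes and tumour cells, was at 159 ± 32.4 against 332 ± 67.4 CPM (-1.06 ± 0.20, adjusted p = 0.000429). Plat and Plau, the tissue and urokinase plasminogen activators, rose by 0.78 and 0.86 on the log2 scale (adjusted p = 0.000617 and 0.00318).

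Lysosomal cathepsins moved apart. Ctso rose by 1.01 and Ctsd by 0.69 (adjusted p = 0.000237 and 0.00712). Ctsc, which activates granzymes and neutrophil proteases, was at 453 ± 67.0 against 851 ± 253 CPM (-0.91 ± 0.26, adjusted p = 0.0126), a call lost without both libraries numbered 2. Ctsg, a protease of neutrophils and mast cells, at 2.83 ± 2.28 against 0.268 ± 0.138 CPM, rose by 3.39 (adjusted p = 0.00578), but not with limma voom (adjusted p = 0.068). Of 26 protease inhibitors, 5 rose and 5 fell. The cystatin Cst6 was at 4.81 ± 1.53 against 26.8 ± 5.71 CPM (-2.48 ± 0.26, adjusted p = 1.1e-07) and Serpina3f at 1.44 ± 0.505 against 15.0 ± 6.73 CPM (-3.37 ± 0.57, adjusted p = 0.000105), whereas Timp1 and Reck, which restrain metalloproteinases, rose by 0.83 and 0.82. Among complement genes 3 of 18 rose and 2 fell, with 1 lower without WT_aPD1 replicate 2 and 3 lower without WT_aPD1 replicate 4. Serping1, the C1 inhibitor, fell by 1.68 (adjusted p = 0.013).

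DNA replication genes were lower. Of 16 tested, 8 fell and none rose, with a median of -0.44, and 11 fell without B2mKO_aPD1 replicate 2. Cdc6, which loads the replicative helicase, was at 30.4 ± 6.93 against 52.0 ± 4.49 CPM (-0.77 ± 0.13, adjusted p = 0.000143), and the helicase subunit Mcm3 at 134 ± 24.9 against 198 ± 14.6 CPM (-0.56 ± 0.12, adjusted p = 0.00122). Of 20 mitotic genes 5 fell and none rose. Top2a, which untangles chromosomes, was at 641 ± 101 against 1016 ± 74.3 CPM (-0.66 ± 0.09, adjusted p = 1.13e-05). The mitotic count was 2 when these 10 libraries were fitted alone. Under IgG1, 12 of the replication and 11 of the mitotic genes were lower in knockout tumours.

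Genes of the unfolded protein response rose in 7 and fell in 3 of 16 tested. The rises were in chaperones and folding enzymes of the endoplasmic reticulum, such as Pdia4 at 385 ± 10.2 against 264 ± 22.0 CPM (0.55 ± 0.08, adjusted p = 1.6e-05) and Hspa5, which rose by 0.44 (adjusted p = 0.00954), and in the factor Xbp1. The falls were in Atf4, Trib3 and Hsp90b1, of which Atf4 and Trib3 belong to the integrated stress response. Hsp90b1 is itself a chaperone of the endoplasmic reticulum, so the chaperones did not all rise. There were 5 rises without B2mKO_aPD1 replicate 2 and 5 without B2mKO_aPD1 replicate 4. Leaving out WT_aPD1 replicate 4 with B2mKO_aPD1 replicate 2 gave 4 rises, and fitting these 10 libraries alone gave 1 fall. Of 20 hypoxia and glycolysis genes 5 fell and none rose, led by Pfkfb3 at 34.4 ± 16.6 against 87.5 ± 30.4 CPM (-1.35 ± 0.27, adjusted p = 0.00065). That count was 2 without WT_aPD1 replicate 1 or B2mKO_aPD1 replicate 1, and 3 without WT_aPD1 replicate 2, 4 or 5 or B2mKO_aPD1 replicate 5. Over all genes 10.2% fell in the main fit, so 2 of 20 is near the share over all genes.

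Among the largest single differences were genes nearly silent in 1 genotype. Chrm3, a muscarinic acetylcholine receptor, was at 17.6, 13.7, 14.7, 5.42 and 12.5 CPM in wild-type and 0.108, 0.049, 0, 0 and 0.131 CPM in knockout tumours (-7.64 ± 0.53, adjusted p = 4.57e-11). Hpse2, a heparanase-like protein, went the other way, with 682 counts in the 5 knockout libraries and 2 in the 5 wild-type libraries. The CPM ratio was 357, with an exact 95% counting interval of 98.5 to 2957 that covers counting error only. Bnc1, a zinc finger factor of squamous epithelia, was at 0.105 ± 0.140 against 7.00 ± 1.76 CPM (-5.96 ± 0.49), and Sntb1, a syntrophin, at 2.24 ± 0.703 against 36.8 ± 6.49 CPM (-4.03 ± 0.25). Robo2, a guidance receptor, was at 163 ± 48.4 against 17.4 ± 4.39 CPM (3.22 ± 0.22). Trp63, a factor of basal epithelia, rose by 3.57, while Krt14, a keratin of the same cells, fell by 4.76. Other skin markers, too scarce to test, had more counts in the wild-type libraries, with 63 against 6 for Krt5, 44 against 3 for Krt1, 39 against 0 for Lor and 13 against 1 for Krt15. The part of skin in these differences was not tested.

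Several of these large differences were also called with the control antibody. Under IgG1 the log2 fold changes were -5.89 for Chrm3, 7.19 for Hpse2, -4.70 for Bnc1, -3.69 for Sntb1 and 3.00 for Robo2, all past the threshold. Dnase1l3, a secreted nuclease of dendritic cells and macrophages, was at 1.19 ± 0.625 against 32.2 ± 17.5 CPM under aPD1 (-4.75 ± 0.69, adjusted p = 1.28e-05) and did not pass under IgG1 (-1.66, adjusted p = 0.081, unadjusted p = 0.0207 by the same edgeR fit). The difference between the antibodies in Dnase1l3 did not pass either (-3.10 ± 0.94, adjusted p = 0.182). Mfap4, a microfibril protein of the matrix, was at 269 ± 133 against 9.41 ± 3.51 CPM (4.84 ± 0.39, adjusted p = 6.59e-10) and 3.01 higher under IgG1.

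**Figure D5:**
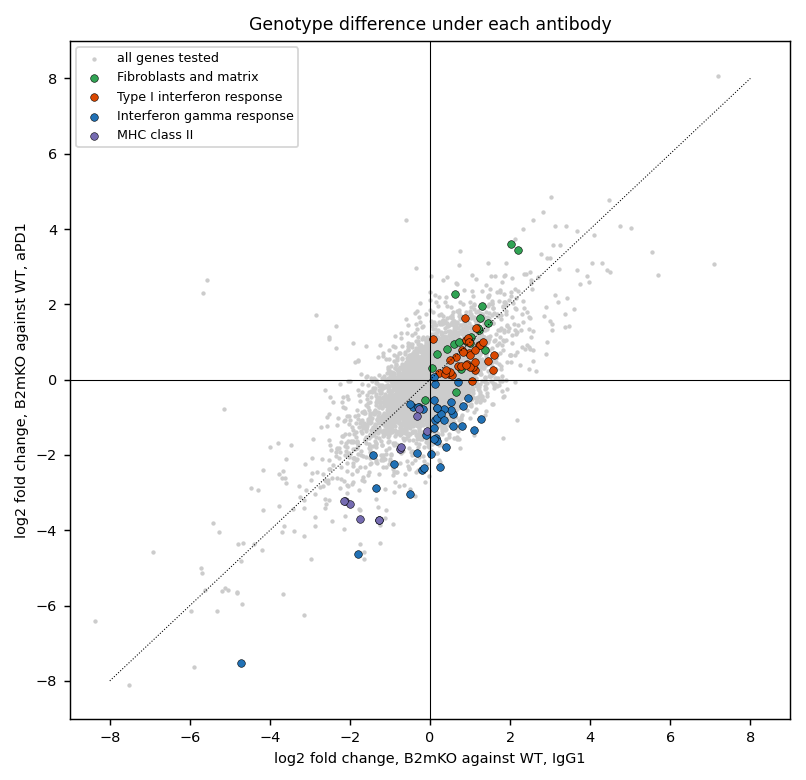
Log2 fold change of B2mKO against WT under aPD1 (vertical axis) and under IgG1 (horizontal axis) for the 15505 tested genes (grey) and 4 gene lists (coloured), with the dotted line at equal values. The 2 comparisons share no library. Type I interferon and fibroblast genes lie mostly to the upper right, and interferon gamma response genes lie mostly below the horizontal line. The IgG1 values of the interferon gamma response genes fall on both sides of 0, with 5 members called higher and 3 lower under IgG1.

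Across all genes the genotype difference was partly shared between the antibodies. Under IgG1, 3194 genes passed the test (20.6%), 1407 higher and 1787 lower. The sign under IgG1 was the same for 89.1% of the genes higher under aPD1 and for 87.2% of those lower. Over all tested genes that share was 61.9%. Both comparisons called 643 genes higher, 43.4% of those higher under aPD1 and 45.7% of those higher under IgG1. Both called 785 lower, 49.7% and 43.9% of each list, and 9 genes passed in opposite directions. The 9 were Ikbke, Il2rg, Gbp7, Cxcl10, Il18bp, Il12rb1, Heatr9, Tap2 and Lrrtm2, each lower in knockout tumours under aPD1 and higher under IgG1. They are named because they are few and were chosen after their values were seen. Of the 42 interferon gamma response genes, 5 were higher and 3 lower under IgG1, with a median of 0.12.

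The difference of the genotype differences was tested directly. It passed for 15 genes (0.0967%), 13 more negative (0.0838%) and 2 more positive under aPD1, and 2500 genes had an unadjusted p under 0.05. Of the 42 interferon gamma response genes 4 passed, all more negative under aPD1, with a median difference of -1.42. None of the 10 MHC class II genes passed. For most members of both lists a dependence on the antibody was therefore not shown. Gbp7, a guanylate-binding protein with both elements in its printed promoter, was at 333, 339, 303, 219 and 384 CPM in WT_aPD1 and 189, 126, 137, 190 and 191 CPM in B2mKO_aPD1, but at 140 CPM in WT_IgG1 and 210 CPM in B2mKO_IgG1 on average. The difference was -1.50 ± 0.26 (adjusted p = 0.0298). For Cd274 it was -2.20 ± 0.40 and for Il2rg -1.74 ± 0.32 (adjusted p = 0.0298 for each). Irgm1, whose printed promoter has overlapping ISRE matches, gave -1.21 ± 0.23 and the peptidoglycan sensor Nod2 -1.76 ± 0.34 (adjusted p = 0.0341 for each). Kcne3, a potassium channel subunit, gave 3.33 ± 0.59 (adjusted p = 0.0298).

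This count of 15 was unstable. It was 0 in 10 of 20 fits that left out a single library, 125 without WT_aPD1 replicate 4 and 118 without WT_IgG1 replicate 4. The 10 fits with 0 genes left out WT_aPD1 replicate 1, 2, 3 or 5, B2mKO_aPD1 replicate 2, WT_IgG1 replicate 1 or 5, or B2mKO_IgG1 replicate 1, 4 or 5. With DESeq2 it was 121.

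A direct test set the B2m knockout beside the Jak1 knockout under the same antibody, and 4361 genes passed (28.1%), 2299 higher (14.8%) and 2062 lower (13.3%) in B2mKO_aPD1. Jak1 is needed for signalling by both interferon types. Of the 34 type I interferon response genes 33 were higher in B2mKO_aPD1 and none lower, with a median of 2.09. Of the 42 interferon gamma response genes 23 were higher and 2 lower, the latter being Wars and Gbp2b, with a median of 0.96. Of the 14 class I heavy chains and partners 11 were higher, with a median of 1.12. This comparison shares the B2mKO_aPD1 libraries with the one against WT_aPD1.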

How the data were processed

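Total RNA of 30 subcutaneous MC38 tumours was sequenced, and 10 libraries enter the main comparison. The submitters' processing notes name the build mm10. Reads were counted per gene with featureCounts 2.0.0 and Ensembl GRCm38 release 99, per the headers of the counts. The command there names no option for strand, read pairs or multimapping reads. Reads of overlapping, antisense or near-identical genes may therefore be misassigned or left uncounted. The submitters' processing notes also name STAR 2.5.2a, FastQC 0.11.2, Cufflinks 2.2.1 and edgeR 3.24.3. The deposited values are whole-number counts for 55471 genes, and the 327 rows without a symbol hold 0.047% of the counts. The header of WT_aPD1 replicate 2 names another alignment file than its title, and the sample's own label was used.

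All 30 libraries were fitted with edgeR 4.0.16 (quasi-likelihood test, TMM scaling, 6 group means) in R 4.3.3 after a filter by group at a minimum count of 10 and a minimum total of 15. P-values were adjusted by Benjamini and Hochberg over 15505 genes, with calls at 0.05. Levels are CPM on the filtered, TMM-scaled library totals. Log2 CPM used a prior count of 2, and the SE is the size of the log2 fold change over the square root of F. The labels give mice but do not say that each tumour is a separate animal, and the p-values then rest on sample-to-sample spread that may be technical. Libraries of 1 group differed by more than counting noise, with a chi-square per degree of freedom of 12.7 to 206 over 20 pairs. Members and gene lists were chosen with earlier results of these data known. Named genes were B2m and Jak1, up to 15 rises and 15 falls with the largest change (at least 5 CPM in the higher group, groups apart, called in every fit without a single library), up to 4 called members with the smallest p per list (2 where none was called), and 8 genes of the difference between antibodies, and predicted genes were skipped. Other members of a list that are named were chosen after their values were seen. DESeq2 1.42.0, limma 3.58.1 (voom) and other filters and sample sets were alternatives, and leaving out WT_aPD1 replicate 4 with B2mKO_aPD1 replicate 2 was chosen after seeing the data. Some members of the lists enter the counts and are not reported here by name. Promoters came from RefSeq GRCm38.p6.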

Additional observations from a re-analysis of the deposited data

Results flagged for a closer look

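Among 156 named genes, 312 groups of 5 libraries were examined for a highest or lowest library whose gap to its nearest neighbour took more than 0.71 of the group's range, and 34 were found. Chance gives about 1 in 20. Of the knockout tumours B2mKO_aPD1 replicate 2 stood apart most often. It was high for Inmt (28.9 CPM), Vstm5 (18.4 CPM), Irf1 (375 CPM), Ido1 (0.392 CPM), Upp1 (39.9 CPM), H2-DMb1 (59.2 CPM), Xcl1 (5.20 CPM) and Ccl9 (171 CPM). It was also high for Plat (168 CPM), Pdia6 (682 CPM), Xbp1 (233 CPM) and Epcam (3.63 CPM), and low for Nlrc5 (24.9 CPM), Stat5b (52.3 CPM) and mt-Nd2 (1117 CPM). B2mKO_aPD1 replicate 3 was at 0.342 CPM for Bnc1, 1.32 CPM for Afap1l2, 43.7 CPM for Oasl1, 242 CPM for Mrc1 and 1.51 CPM for Pck1. B2mKO_aPD1 replicate 4 was at 1.02 CPM for Inpp5j, 9.76 CPM for Kit and 62.9 CPM for Pfkfb3.

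Of the wild-type tumours, replicate 4 was low for H2-Q7 (393 CPM), H2-K1 (1794 CPM), Il2ra (5.84 CPM) and Il15ra (24.6 CPM). It was high for Fcrls (46.0 CPM), Mrc1 (76.8 CPM) and Lrrc32 (9.75 CPM). WT_aPD1 replicate 1 stood apart for Krt14 at 3.36 CPM, replicate 2 for Kit at 5.91 CPM and Ctsd at 420 CPM, and replicate 3 for Cdc6 at 59.7 CPM.

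The genotype difference differed between the antibodies, by the edgeR test of the difference itself, for 9 named genes. The log2 difference was -0.75 for Tap2, -2.20 for Cd274, -1.74 for Il2rg, -1.50 for Gbp7, -1.28 for Lrrtm2, -0.57 for Nab1, -1.21 for Irgm1 and -1.76 for Nod2. It was 3.33 for Kcne3.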

How the results depend on the processing

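Fitted to the groups compared alone, the main count of 3061 genes became 1753 (844 higher and 909 lower, of 14366 genes tested), and the IgG1 count of 3194 became 1435. Without single libraries the main count was 2267 to 3176 (1045 to 1540 higher, 1222 to 1645 lower), the IgG1 count 2221 to 3825 and the count against Jak1KO_aPD1 3636 to 4566. Other settings gave main counts of 3424 (DESeq2), 3011 (limma voom), 3076 (DESeq2 size factors), 2336 (no filter), 2964 (1 CPM in 5 libraries) and 2765 (both libraries numbered 2 left out). The 15 genes whose genotype difference differed between antibodies became 121 with DESeq2, 8 with only the groups compared, 3 with the replicate block, 0 without both libraries numbered 2, 102 without WT_aPD1 replicate 4 and B2mKO_aPD1 replicate 2, and 0 to 125 without single libraries. The log2 fold change of B2m ran from -2.70 to -2.52 without single libraries. Replicate numbers did not pair the samples: same-numbered tumours had correlations of their deviations of 0.144, -0.004, -0.449, 0.099 and 0.195, and 1 of 5 numbers correlated best with itself. With the replicate number as a block the main count was 2887. Epcam, which did not pass the main test (1.32), had a log2 fold change of -0.20 without both libraries numbered 2 and -0.22 without WT_aPD1 replicate 4 and B2mKO_aPD1 replicate 2. Of 149 named genes past the threshold, 28 were lost under at least 1 setting. The other 121 were lost under no setting that gave them an adjusted p, and a setting that gave none was not counted as a loss. Genes at a few CPM have few counts per library, and the cause of the changes between settings was not tested.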
